A study of Mus musculus with 6 samples.

Results

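The enzymes that add and remove acetyl and methyl groups on histones were followed in RNA-seq of 3 mouse T-cell lymphomas. Members are the genes whose symbol is Hdac, Sirt or Prmt with a number, or Kat, Kmt or Kdm with a number and a letter, apart from Kdm5d. This gave 54 of 34245 genes in the table: 11 Hdac and 7 Sirt deacetylases, 4 Kat acetyltransferases, 8 Kmt and 8 Prmt methyltransferases and 16 Kdm demethylases.

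The study asked what the loss of 1 allele of Dnmt3b, a de novo DNA methyltransferase, does in mice. Its RNA-seq group consists of Dnmt3b+/- mice on an FVB/N background, which carry a conventional knockout allele in every cell and received no treatment. Each of the 3 libraries came from an independent peripheral T-cell lymphoma (PTCL), taken as bulk tumor from the lymph nodes of a terminally sick mouse whose age is not given in the sources used. RNA-seq of normal T-cells was not analysed here, so each comparison is among tumors or among genes within a tumor. The depth inferred from FPKM and exon lengths was 30726570 reads for tumor 1, 18969988 for tumor 2 and 20770928 for tumor 3.

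Dnmt3b itself was at 0.975 FPKM in tumor 1 (153 reads), 1.55 in tumor 2 (150 reads) and 1.25 in tumor 3 (133 reads), with a mean of 1.26 ± 0.287 FPKM (SD, n = 3). All 3 tumors therefore held Dnmt3b RNA. FPKM, which counts fragments relative to exon length and library depth, covers all exons of a gene, so the wild-type and the knockout allele were not separated.

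The label of the tumors was checked on 11 T-cell genes. All 11 were above 0.2 FPKM in each tumor, and they summed to 1353, 1073 and 1429 FPKM in tumors 1, 2 and 3. Cd8b1, a chain of the CD8 coreceptor, had the highest mean of them, with 435, 166 and 443 FPKM, against 28.4, 4.28 and 8.22 FPKM of Cd4. Tumors were bulk tissue, and fewer cells of a type and less RNA per cell cannot be told apart in any value that follows.

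Acetyltransferases place acetyl groups on histone lysines, which loosens chromatin and is a mark of active genes, and deacetylases take them off. Methyltransferases and demethylases set and clear methyl groups whose meaning depends on the residue: methylated H3K4 marks promoters and enhancers of active genes, methylated H3K9 and H3K27 mark silent ones. In T-cells these enzymes are known to act in lineage choice, in the response to the antigen receptor and, when mutated, in lymphoma.

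Nearly all the enzymes were transcribed in these lymphomas. Of the 54 members, 52 were above 0.2 FPKM in each tumor, a level that 36.7% of all genes reached. With median-of-ratios factors the count was 51, as Kdm4d came to 0.197 in tumor 1, and as TPM it was 53. No share of all genes was taken for either. The members summed to 418, 459 and 380 FPKM in tumors 1, 2 and 3. Their median mean level was 6.19 FPKM, with a range from 0.0147 to 44.3. A mean of at least 1 FPKM was found for 48 members and 11197 genes, and over these the medians were 6.55 and 5.70 FPKM. The 5 highest members, Hdac7, Kmt2d, Prmt1, Kdm5c and Hdac1, held 29.8% of the members' sum.

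**Figure D1:**
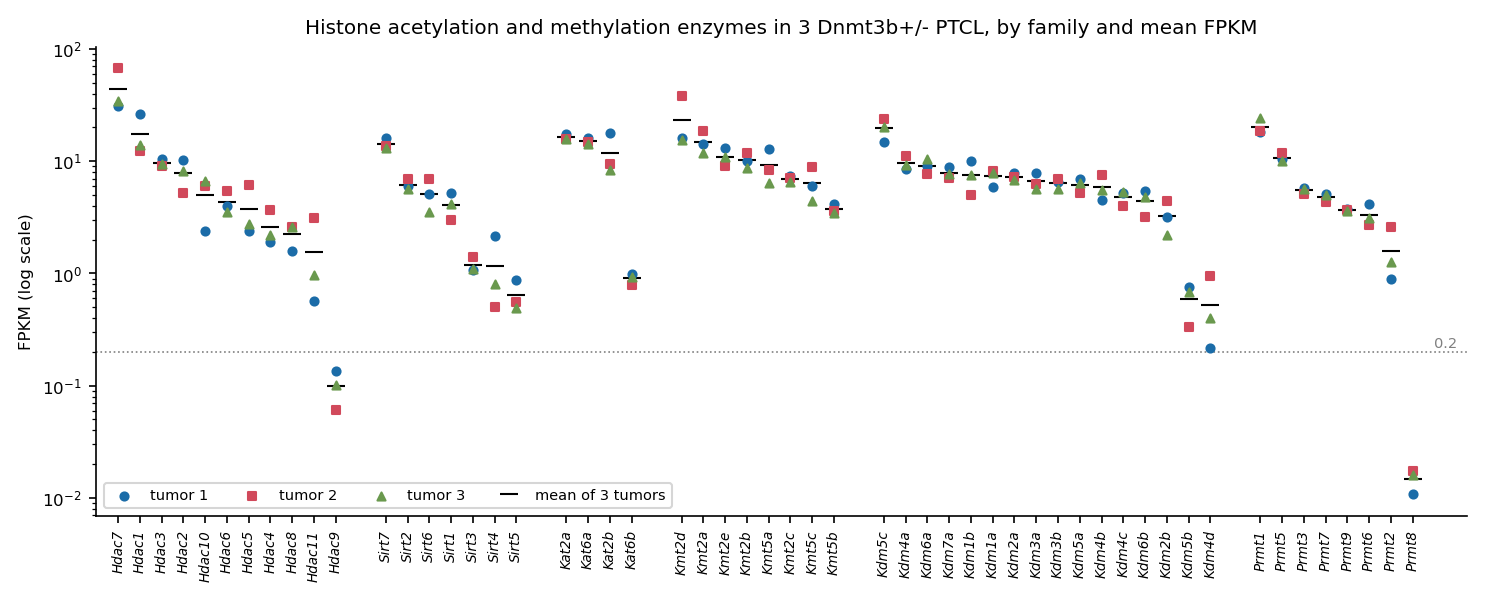
FPKM of each of the 54 members in the 3 tumors, on a log axis and grouped by family. Hdac7 stands highest and Hdac9 and Prmt8 lowest in each tumor; Prmt8, which had no read, is drawn at the value the table lists for a gene without reads.

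The 2 members that stayed under the level were Hdac9 and Prmt8. Hdac9, a class IIa deacetylase known from muscle and brain, was at 0.135 FPKM in tumor 1 (61 reads), 0.0611 in tumor 2 (17 reads) and 0.102 in tumor 3 (31 reads). Its few reads were present in each tumor, and its mean of 0.0994 ± 0.0372 FPKM (n = 3) was below that of the other 10 Hdac genes. Prmt8, an arginine methyltransferase of neurons, was without reads throughout. A count of 3 reads, taken as the limit for a gene without reads, would correspond to 0.0358, 0.0581 and 0.0530 FPKM in tumors 1, 2 and 3. Intervals and limits on reads cover counting error only. Just above the level was Kdm4d, a H3K9 demethylase best known from testis, with 0.216, 0.958 and 0.404 FPKM (19, 52 and 24 reads). It was singled out after its values were seen.

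Promoter sequences were compared with these levels, using windows of 300 bases (250 before and 50 after the start) from RefSeq on build GRCm38.p6. Windows were found for 43 of the 54 members. Kdm5a, Hdac10, Kat6a, Kdm4b, Hdac3, Kmt2b, Kdm3b, Kdm2a, Kmt2e, Kdm6b and Hdac1 had none. For 37 members the RefSeq start lay within 250 bases of the gene start in the table. Members had a median of 20 CpG sites per window, near the 21 of genes with a mean of at least 1 FPKM, against 12 over all 19155 genes with a window and 3 over genes without a read in any tumor. The observed over expected CpG ratio was 0.796 for members, 0.545 for all genes, 0.786 for genes at a mean of at least 1 FPKM and 0.207 for genes without a read. So the members' promoters resembled those of other transcribed genes.

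CpG density at the RefSeq start and level went apart for Hdac7, Prmt8 and Kdm4c but not for Hdac9 and Kmt2d. Each window takes 1 RefSeq start, and the start in use in these tumors was not determined. Hdac7, the highest member, had 6 CpG sites in its window and an observed over expected ratio of 0.283. Prmt8, without a read, had 43 sites and a ratio of 0.936, though its RefSeq start lies 313 bases from the gene start of the table. Hdac9 had none, and neither had Kdm4c, whose mean was 4.85 FPKM. Kmt2d, the member with the next highest mean after Hdac7, had 27. That rank rests on tumor 2. Without this tumor the mean of Kmt2d was 15.8 FPKM, under the 21.1 of Prmt1 and the 20.2 of Hdac1. The 150 bases before the RefSeq start are given in lower case, read 5′ to 3′ on the gene's strand, with CpG sites in capitals. Those of Hdac7 lie at chr15:97844503-97844652 on the minus strand, those of Kmt2d at chr15:98871206-98871355 on the minus strand, those of Hdac9 at chr12:34917096-34917245 on the minus strand, and those of Prmt8 at chr6:127769160-127769309 on the minus strand. They hold 3, 12, 0 and 21 CpG sites in that order.
Hdac7: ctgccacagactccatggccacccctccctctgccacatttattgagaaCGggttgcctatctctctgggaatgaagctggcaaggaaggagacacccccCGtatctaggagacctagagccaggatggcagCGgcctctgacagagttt
Kmt2d: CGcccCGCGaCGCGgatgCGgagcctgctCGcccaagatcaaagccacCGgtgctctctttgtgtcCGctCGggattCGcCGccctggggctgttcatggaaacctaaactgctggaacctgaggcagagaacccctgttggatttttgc
Hdac9: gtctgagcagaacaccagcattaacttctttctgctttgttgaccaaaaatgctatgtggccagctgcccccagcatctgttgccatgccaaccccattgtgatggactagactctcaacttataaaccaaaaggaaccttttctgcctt
Prmt8: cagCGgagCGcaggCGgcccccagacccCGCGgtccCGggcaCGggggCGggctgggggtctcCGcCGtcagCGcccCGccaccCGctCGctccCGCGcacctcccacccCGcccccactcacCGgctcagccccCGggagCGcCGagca
The GC box GGGCGG, a binding site of Sp factors, stood on either strand in 27 of the 43 windows (62.8%), against 44.8% of all windows and 65.1% of those of genes at a mean of at least 1 FPKM. A CCAAT box, bound by NF-Y, was in 19 (44.2%, against 38.5% and 39.1%). The ETS core CCGGAAG was in 7 (16.3%, against 11.4% and 20.9%), and the TATA box TATAAA in 3 (6.98%, against 12.9% and 6.59%), Hdac9 being 1 of these 3. Methylation of these promoters was not analysed here.

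Levels between tumors depend on the scale on which they are set side by side. Over genes with a mean of at least 1 FPKM the median log2 ratio was -0.18 for tumor 2 over tumor 1, -0.24 for tumor 3 over tumor 1 and 0.06 for tumor 2 over tumor 3. Ratios of a member between tumors were therefore computed on 4 scales: FPKM as deposited, FPKM divided by median-of-ratios factors (1.10, 0.975 and 0.935), FPKM centred by the GC content of the transcript, and FPKM centred by GC content and then by chromosome. Both centred scales were chosen after seeing the data. Of the 48 members, 25 had the same highest tumor on all 4 scales and 23 did not, while 63.8% of all genes had the same.

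Among deacetylases, the balance between class IIa and class I differed from tumor to tumor. Class I enzymes (Hdac1, Hdac2, Hdac3 and Hdac8) summed to 48.8, 29.3 and 34.1 FPKM in tumors 1, 2 and 3. Among them Hdac1, Hdac2 and Hdac3 are catalytic subunits of nuclear corepressors. Class IIa enzymes (Hdac4, Hdac5, Hdac7 and Hdac9) shuttle between nucleus and cytoplasm and bind MEF2 factors, and they summed to 35.4, 77.2 and 39.6 FPKM. The ratio of class IIa to class I was thus 0.725, 2.64 and 1.16 in tumors 1, 2 and 3. It had the same order with values centred by GC content (0.926, 1.92 and 1.23) and by GC content and chromosome (0.971, 1.63 and 1.39). Hdac7, the class IIa enzyme of developing thymocytes, made up 87.3% of its class, and Hdac1 made up 47.0% of class I. As deposited, Hdac1, Hdac2 and Hdac3 were highest in tumor 1, but Hdac8 was lowest there. Hdac4, Hdac5 and Hdac7 were highest in tumor 2, but Hdac9 was lowest there.

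Hdac7 was at 31.0, 67.4 and 34.5 FPKM in tumors 1, 2 and 3, a mean of 44.3 ± 20.1 (n = 3) that lay above 94.5% of the 11197 genes. Tumor 2 was highest on all 4 scales, but the ratio of highest to lowest tumor was 2.17 as deposited, 1.53 centred by GC content and 1.11 centred by GC content and chromosome. Hdac1, a subunit of Sin3, NuRD and CoREST complexes, was at 26.5, 12.4 and 13.9 FPKM in tumors 1, 2 and 3. Here tumor 1 was highest on all 4 scales, with ratios of 2.13, 1.89, 1.92 and 2.07 from the deposited to the last. Hdac7 over Hdac1 was 1.17, 5.42 and 2.49 in tumors 1, 2 and 3, and 1.49, 3.45 and 3.07 after centring by GC content and chromosome, where tumors 2 and 3 lay closer together. Hdac5, another MEF2 partner, was at 2.38, 6.11 and 2.75 FPKM, and its ratio of 2.56 became 1.81 after centring by GC content, with tumor 2 highest on all 4 scales.

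Hdac11 and Hdac10 had the largest ratios between tumors among the Hdac genes at a mean of at least 1 FPKM, as deposited. Hdac11 reached that mean only through tumor 2, its highest tumor, and had a mean of 0.771 FPKM without it. Hdac11, the single class IV enzyme, which removes long acyl chains, was at 0.567 FPKM in tumor 1 (67 reads, 95% Poisson interval 0.439 to 0.719), 3.10 in tumor 2 (226 reads, 2.70 to 3.53) and 0.976 in tumor 3 (78 reads, 0.771 to 1.22). Tumor 2 stood above the other tumors beyond these intervals, and the ratio of highest to lowest was 5.46 as deposited, 6.16 with median-of-ratios factors, 4.45 centred by GC content and 4.38 centred by GC content and chromosome. Hdac10, a class IIb enzyme that acts on polyamines, was at 2.37, 5.99 and 6.65 FPKM (246, 384 and 467 reads). It was lowest in tumor 1 and highest in tumor 3 on all 4 scales, with ratios between 2.81 and 3.30. Other deacetylases had means of 9.72 ± 0.751 FPKM (Hdac3, the NCoR enzyme), 7.86 ± 2.51 (Hdac2), 4.30 ± 0.995 (Hdac6, which deacetylates tubulin), 2.60 ± 0.943 (Hdac4) and 2.26 ± 0.588 (Hdac8, the cohesin deacetylase), each with n = 3.

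Sirtuins use NAD to remove acyl groups, and in these tumors the nuclear and cytoplasmic ones had higher means than the mitochondrial ones. Sirt7 of the nucleolus had a mean of 14.4 ± 1.62 FPKM, Sirt6 of telomeric and damaged chromatin 5.15 ± 1.69 and Sirt1 4.11 ± 1.12, and the cytoplasmic Sirt2 had 6.19 ± 0.706 (n = 3). The mitochondrial Sirt3, Sirt4 and Sirt5 had 1.20 ± 0.186, 1.16 ± 0.881 and 0.641 ± 0.202 FPKM, the mean of Sirt4 being 0.654 without tumor 1. Sirt4, which acts on glutamine metabolism, was at 2.16 FPKM in tumor 1 (159 reads, interval 1.84 to 2.52), 0.506 in tumor 2 (23 reads, 0.321 to 0.759) and 0.803 in tumor 3 (40 reads, 0.574 to 1.09). It was highest in tumor 1 beyond the intervals and on all 4 scales, with ratios of 4.27, 3.79, 4.59 and 4.20. No other sirtuin with a mean of at least 1 FPKM reached a ratio of 2 on the deposited scale.

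Acetyltransferases were led by Kat2a (GCN5), the catalytic subunit of SAGA and ATAC, with 17.6, 15.8 and 15.7 FPKM, whose highest tumor is 3 instead of 1 with median-of-ratios factors. Its paralog Kat2b (PCAF) was at 18.0, 9.39 and 8.43 FPKM in tumors 1, 2 and 3. Kat2b was thus near Kat2a in tumor 1 and lower in the others on the deposited scale, and it was highest in tumor 1 on all 4 scales, with ratios of 2.14, 1.82, 1.67 and 1.72. Of the MYST enzymes that acetylate H3 with BRPF scaffolds, Kat6a had 16.1, 14.9 and 14.2 FPKM (mean 15.1 ± 0.957) and Kat6b had 0.996, 0.796 and 0.930 (mean 0.907 ± 0.102, n = 3). For both of them the highest tumor was 1 as deposited and another on the other scales. Kat6a made up 94.3% of this pair's sum.

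The MLL group was taken as the H3K4 methyltransferases Kmt2a, Kmt2b, Kmt2c and Kmt2d with their relative Kmt2e. It held the larger part of the Kmt sum, with 60.7, 85.1 and 53.6 FPKM in tumors 1, 2 and 3. Kmt2d, which methylates enhancers and is often mutated in lymphoma, was at 16.1, 38.4 and 15.5 FPKM. Tumor 2 was highest on all 4 scales, whereas the ratio of 2.48 as deposited was 1.84 centred by GC content and 1.34 centred by GC content and chromosome. Kmt2c, its enhancer partner, had 7.39, 7.12 and 6.51 FPKM and a coefficient of variation of 6.42% as deposited, with tumor 2 rather than tumor 1 highest on the other 3 scales. Kmt2a had a mean of 14.9 ± 3.31 FPKM, Kmt2e, an MLL relative that binds methylated H3K4, 11.0 ± 1.95, and Kmt2b 10.2 ± 1.64 (n = 3). Of the H4K20 enzymes, Kmt5a, which sets the first methyl group in dividing cells, had a mean of 9.18 ± 3.25 FPKM. Kmt5c and Kmt5b, which add further ones, had 6.46 ± 2.24 and 3.74 ± 0.357.

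Demethylases formed the largest family, and none stood out in level as Hdac7 did. Kdm5c, a H3K4 demethylase on the X chromosome, was the highest at 14.9, 23.7 and 20.2 FPKM, with tumor 2 highest except after centring by GC content and chromosome, where tumor 1 was. It was followed by the H3K9 and H3K36 demethylase Kdm4a at 9.66 ± 1.37 and the H3K27 demethylase Kdm6a at 9.07 ± 1.32 (n = 3). As deposited, 2 of the 14 with a mean of at least 1 FPKM reached a ratio of 2, against 34.4% of all genes. Kdm6b, at a ratio of 1.71 as deposited, had 2.42 centred by GC content and 2.31 centred by GC content and chromosome. Kdm1b, an amine oxidase for H3K4, was at 10.0, 4.98 and 7.60 FPKM in tumors 1, 2 and 3, a ratio of 2.01 that was under 2 on the other scales. It was lowest in tumor 2 on each scale and highest in tumor 1 except after centring by GC content and chromosome, where tumor 3 was highest. Kdm2b, which brings Polycomb complexes to CpG islands, was at 3.17, 4.44 and 2.20 FPKM, highest in tumor 2 on all 4 scales, with a ratio of 2.02 as deposited and 1.73 centred by GC content.

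The other demethylases had mean levels between the 9.07 FPKM of Kdm6a and the 0.526 of Kdm4d (0.310 without tumor 2). Kdm7a, for H3K9 and H3K27, had 7.90 ± 0.954 FPKM, Kdm1a (LSD1), the CoREST enzyme, 7.36 ± 1.23, and Kdm2a, for H3K36, 7.29 ± 0.556. Kdm3a and Kdm3b, for H3K9, had 6.65 ± 1.15 and 6.38 ± 0.702, Kdm5a, for H3K4, 6.18 ± 0.872, Kdm4b 5.85 ± 1.55, Kdm4c 4.85 ± 0.741 and Kdm6b, for H3K27, 4.46 ± 1.16 FPKM. Kdm5b was low, at 0.763 FPKM in tumor 1 (388 reads), 0.331 in tumor 2 (104 reads) and 0.681 in tumor 3 (234 reads). Tumor 2 was lowest on all 4 scales, and tumor 3 in place of tumor 1 was highest on all but the deposited one.

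Arginine methyltransferases were led by Prmt1, which makes most asymmetric dimethylarginine, at 18.1, 18.4 and 24.1 FPKM. Prmt5, the main enzyme for symmetric dimethylarginine, followed at 10.8 ± 0.942 FPKM, then Prmt3 (5.53 ± 0.390), which modifies a ribosomal protein, Prmt7 (4.79 ± 0.408), which adds single methyl groups, Prmt9 (3.68 ± 0.0791), which methylates a splicing factor, and Prmt6 (3.35 ± 0.765), which acts on H3 (n = 3 each). Prmt9 had the lowest coefficient of variation of all members at a mean of at least 1 FPKM (2.15%), with 3.74, 3.70 and 3.59 FPKM, and Kat6a was next at 6.34%. That evenness holds for the deposited scale, since Prmt9 had a ratio of 1.52 after centring by GC content, and its highest tumor was 1 as deposited, 3 with median-of-ratios factors and 2 on both centred scales. Prmt2, a coactivator of nuclear receptors, was at 0.895 FPKM in tumor 1 (93 reads), 2.60 in tumor 2 (167 reads) and 1.25 in tumor 3 (88 reads). It was highest in tumor 2 and lowest in tumor 1 on all 4 scales, with ratios of 2.91, 3.28, 2.45 and 2.40.

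As shares of the members' sum, which no factor between tumors can alter, the Kdm family held 25.7 ± 2.14%, Hdac 23.5 ± 2.51%, Kmt 20.3 ± 2.61%, Prmt 12.0 ± 1.68%, Kat 10.6 ± 1.86% and Sirt 7.84 ± 0.797% (n = 3). Kdm and Hdac, and likewise Prmt and Kat, differed by less than the larger of their SDs. By sums of recovered reads, which weigh long genes more, Kmt was the largest family at 35.8%, before Kdm at 27.6%, and Prmt held 6.60%. Within the Hdac family the share was 26.4% in tumor 2 against 21.8% and 22.3% in tumors 1 and 3.

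The spread of the members over the tumors was set beside that of all genes. A ratio of highest to lowest tumor of at least 2 was found for 11 of the 48 members at a mean of at least 1 FPKM (22.9%), against 34.4% of the 11197 genes. The count was 24 at a fold of 1.5 and 2 at a fold of 3, against 62.8% and 16.4% of all genes, and 15 as TPM, against 39.4%. The median ratio was 1.49 for members and 1.68 for all these genes. The 11 members with a ratio of at least 2 as deposited were 5 of 10 Hdac genes (Hdac1, Hdac5, Hdac7, Hdac10 and Hdac11), 2 of 14 Kdm (Kdm1b and Kdm2b), and 1 each of 6 Sirt (Sirt4), 3 Kat (Kat2b), 8 Kmt (Kmt2d) and 7 Prmt genes (Prmt2). The tumors with the highest level were tumor 2 for 6, tumor 1 for 4 and tumor 3 for 1 of them. The count rested on some tumors more than on others. Without tumor 3 it was 9 (26.2% of all genes), without tumor 1 it was 5 (15.8%) and without tumor 2 it was 3 (17.6%). Hdac11 and Sirt4 passed the filter through their highest tumor alone, with means of 0.771 FPKM without tumor 2 and 0.654 without tumor 1. With the filter applied to the tumors other than the highest, chosen after seeing the data, 46 members passed, of which 9 reached the fold (30.1% of all genes), Hdac11 and Sirt4 being left out. No test was made, as each tumor is 1 library.

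**Figure D2:**
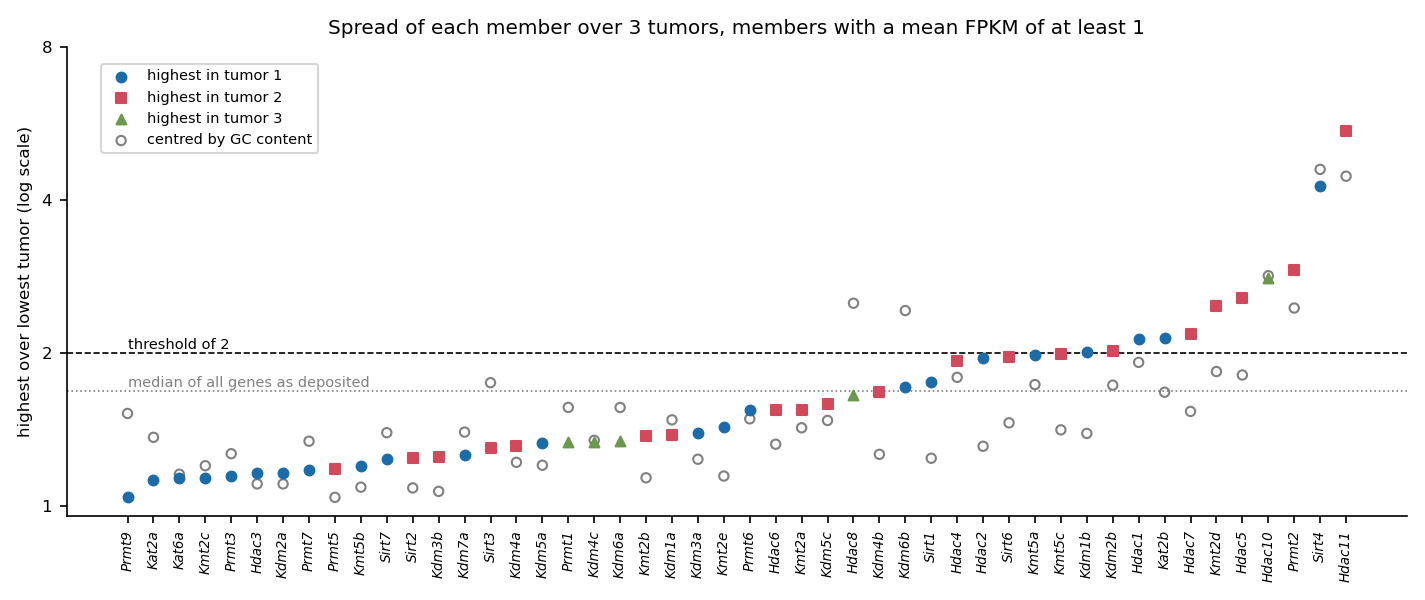
Ratio of the highest to the lowest tumor for the 48 members with a mean of at least 1 FPKM, in order of the ratio on a log axis, with filled symbols as deposited, open circles centred by GC content, and lines at the fold of 2 and at the median of all genes. Hdac11 and Sirt4 have the largest ratios, 5.46 and 4.27, and reach that mean only with their highest tumor; the 11 members past the line include 5 Hdac genes on the deposited scale.

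Scaling altered which members passed this fold. With median-of-ratios factors 8 members did (32.5% of all genes did), Hdac1, Kat2b, Kdm1b and Kdm2b being lost and Hdac4 gained. After centring by GC content there were 6 (27.6% of all genes), namely Hdac8, Hdac10, Hdac11, Kdm6b, Prmt2 and Sirt4. After centring by GC content and chromosome there were again 6 (26.6% of all genes), with Hdac1 in place of Hdac8. Hdac10, Hdac11, Prmt2 and Sirt4 passed on all 4 scales, Hdac11 and Sirt4 having entered these counts through their highest tumor. All 11 members kept the same highest tumor with median-of-ratios factors and after centring by GC content, and 10 did after centring by chromosome as well. This share was not taken for all genes past the fold, so the count describes these members alone.

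Over all 48 members, the highest level was in tumor 1 for 23, in tumor 2 for 20 and in tumor 3 for 5, against 50.6%, 33.7% and 15.7% of all genes. With median-of-ratios factors these counts became 12, 22 and 14 (36.9%, 36.7% and 26.4% of all genes), and after centring by GC content 10, 27 and 11 (35.7%, 34.1% and 30.2% of all genes). On these 3 scales 29 members kept 1 highest tumor (67.8% of all genes did): 7 in tumor 1, 18 in tumor 2 and 4 in tumor 3, against 28.6%, 24.4% and 14.8% of all genes. Without tumor 1 the counts were 30 for tumor 2 and 17 for tumor 3 (54.7% and 45.3% of all genes). Without tumor 2 they were 33 for tumor 1 and 14 for tumor 3 (67.9% and 32.1%), and without tumor 3 they were 25 for tumor 1 and 23 for tumor 2 (58.6% and 41.4%).

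Base composition moved with these differences. Tumor 2 over tumor 1 correlated with transcript GC content with a Spearman rho of 0.48 across 11175 genes and 0.54 across the 48 members. For tumor 3 over tumor 1 rho was 0.22 and 0.19, and for tumor 2 over tumor 3 it was 0.39 and 0.54. Genes of 1 library are not independent replicates, so these are descriptions. In 20 bins of GC content the median log2 ratio of tumor 2 over tumor 1 went from -0.92 at 38.2% GC to 0.50 at 60.8% GC. Of the 29 members above the median GC content of all genes (49.7%), 19 were highest in tumor 2, whereas 15 of the 19 at or below it were highest in tumor 1. The corresponding shares of all genes were 50.5% and 67.7%. Thus Hdac7 (60.2% GC), Hdac5 (59.8%) and Kmt2d (58.4%) lay on the side of tumor 2, and the part of base composition in their levels was not tested.

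**Figure D3:**
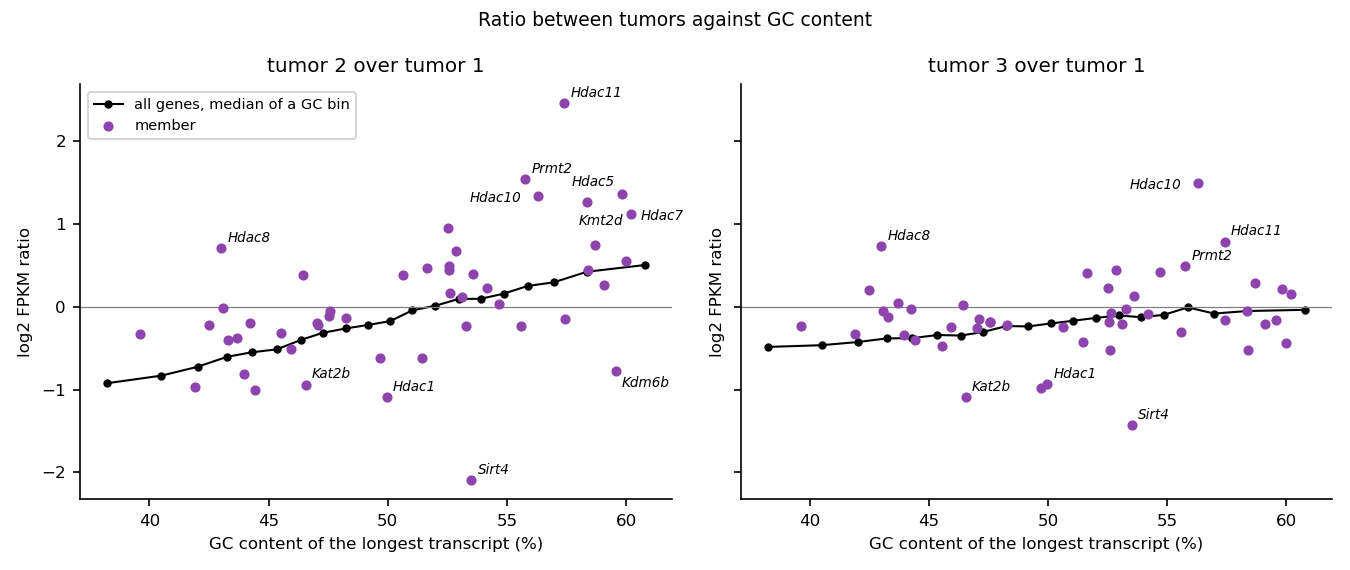
Log2 ratio between tumors against transcript GC content (%), for tumor 2 over tumor 1 (left) and tumor 3 over tumor 1 (right); points are the 48 members and the line joins the medians of 20 bins of all genes. On the left the line climbs from -0.92 to 0.50 with Hdac11 far above and Sirt4 far below it.

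Position moved with the levels too. After centring by GC content, 20 chromosomes with at least 100 genes were described, and chromosomes 15 and X stood apart, as chosen after seeing the data. Genes of chromosome 15 (427 genes) had a median log2 ratio of 0.43 for tumor 2 over tumor 1 and of 0.47 for tumor 2 over tumor 3, and 73.1% of them were highest in tumor 2. Hdac7, Hdac10 and Kmt2d lie on this chromosome. Genes of the X chromosome (331 genes) had medians of 0.72 for tumor 2 over tumor 1 and 0.82 for tumor 3 over tumor 1, and 79.5% were lowest in tumor 1. Hdac6, Hdac8, Kdm5c and Kdm6a lie there. The other 18 chromosomes had medians from -0.17 to 0.11 for tumor 2 over tumor 1, from -0.16 to 0.14 for tumor 3 over tumor 1 and from -0.09 to 0.04 for tumor 2 over tumor 3.

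Centring by chromosome shifted the values of these members. Centred by GC content, Hdac7 had a log2 ratio of tumor 2 over tumor 1 of 0.62, Kmt2d of 0.85 and Hdac10 of 1.09, and further centred by chromosome they had 0.16, 0.39 and 0.63. Hdac8, at 1.58, 2.58 and 2.62 FPKM, had a log2 ratio of 1.33 centred by GC content and of 0.59 when centred by chromosome too. For Kdm5c these values were 0.56 and -0.18 for Kdm6a 0.47 and -0.27, and for Hdac6 0.34 and -0.40, so that the direction between tumors 1 and 2 flipped with the scale for these 3. Xist, the RNA that coats the inactive X chromosome, was at 105, 40.8 and 42.2 FPKM in tumors 1, 2 and 3, and the Y-linked Ddx3y, Eif2s3y and Uty had no read in any tumor. DNA of these tumors was not analysed here, and the part of chromosomes in the result was not tested.

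**Figure D4:**
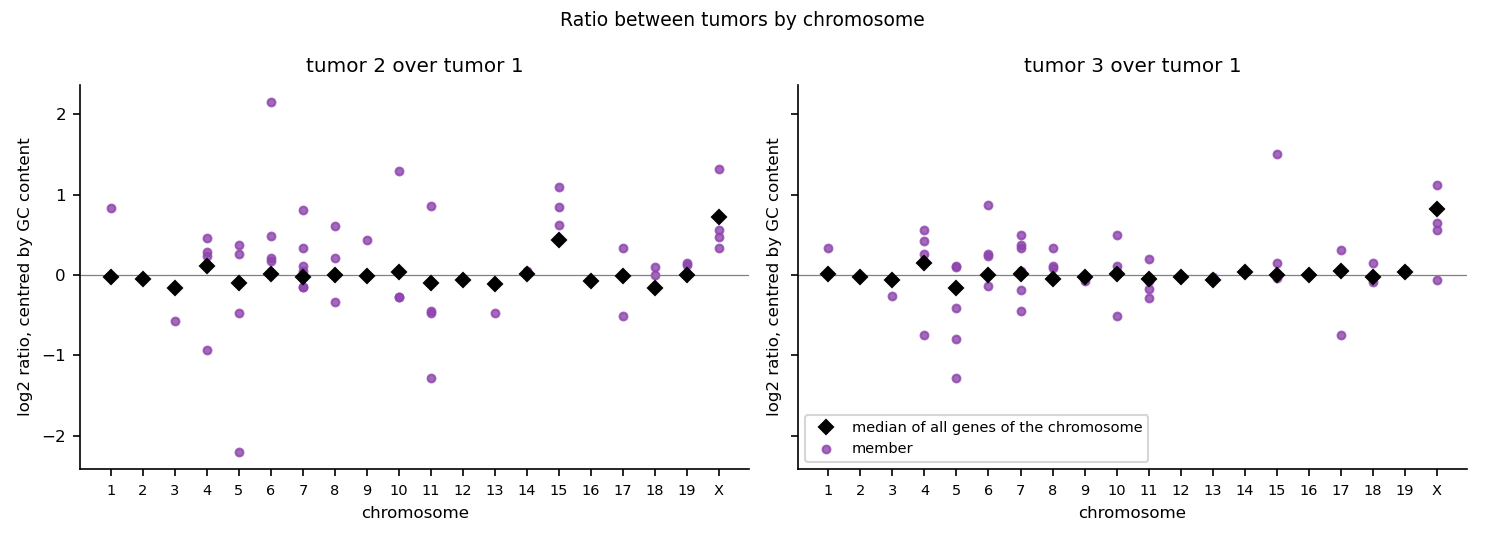
Median log2 ratio between tumors of the genes of each of 20 chromosomes, after centring by GC content, with members as points. Chromosome 15 is at 0.43 for tumor 2 over tumor 1, the X chromosome at 0.72 for tumor 2 and 0.82 for tumor 3 over tumor 1, and the others lie between -0.17 and 0.14.

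Paralogs were then compared within each tumor, where factors between tumors cancel but differences in GC content do not. In 16 of 20 pairs the same paralog was higher in each of the 3 tumors, and in 17 after centring by GC content, with or without chromosome. No share was taken over other pairs of genes, so these counts describe the chosen pairs alone. Among pairs with reads of both genes, Hdac7 over Hdac9 was widest apart, with log2 ratios of 7.84, 10.11 and 8.40 (mean 8.78 ± 1.18). It was followed by Kat6a over Kat6b (4.06 ± 0.15), Kdm5a over Kdm5b (3.46 ± 0.45) and Sirt2 over Sirt3 (2.38 ± 0.08). In the opposite direction stood Kdm5a over Kdm5c (-1.65 ± 0.54), Kmt2c over Kmt2d (-1.60 ± 0.72), Sirt6 over Sirt7 (-1.53 ± 0.47), Kmt5b over Kmt5c (-0.74 ± 0.49) and Hdac4 over Hdac5 (-0.46 ± 0.24). The remaining pairs with 1 sign were Kdm2a over Kdm2b (1.21 ± 0.47), Hdac1 over Hdac2 (1.13 ± 0.32), Kdm6a over Kdm6b (1.05 ± 0.28), Kdm4a over Kdm4c (1.00 ± 0.42), Hdac1 over Hdac3 (0.77 ± 0.48), Kdm4a over Kdm4b (0.75 ± 0.18) and Kmt2a over Kmt2b (0.53 ± 0.09). All are means ± SD of log2 ratios with n = 3. Prmt1 exceeded the limit of 3 reads for Prmt8 at least 505-fold in tumor 1, 317-fold in tumor 2 and 455-fold in tumor 3.

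In 4 pairs the higher paralog depended on the tumor on the deposited scale. Hdac6 over Hdac10 was 0.75, -0.14 and -0.92 in tumors 1, 2 and 3 on the log2 scale, so that Hdac6 led in tumor 1 and Hdac10 in the others, apart from tumor 2 after centring by GC content and chromosome (0.002). Kdm1a over Kdm1b was -0.75, 0.72 and 0.06, with Kdm1b ahead in tumor 1. Kat2a over Kat2b was -0.03, 0.75 and 0.90, and Kdm3a over Kdm3b was 0.29, -0.15 and 0.02. After centring by GC content Kat2a was the higher in each tumor (0.29, 0.36 and 0.96), and Kdm3a over Kdm3b was 0.01, 0.18 and -0.03, its sign turned in tumors 2 and 3. Means of these 4 (-0.11 ± 0.84, 0.01 ± 0.74, 0.54 ± 0.50 and 0.05 ± 0.22, n = 3) were within or close to their spread. Without tumor 3 the mean of Hdac6 over Hdac10 was 0.30, and without tumor 2 that of Kdm1a over Kdm1b was -0.35.

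**Figure D5:**
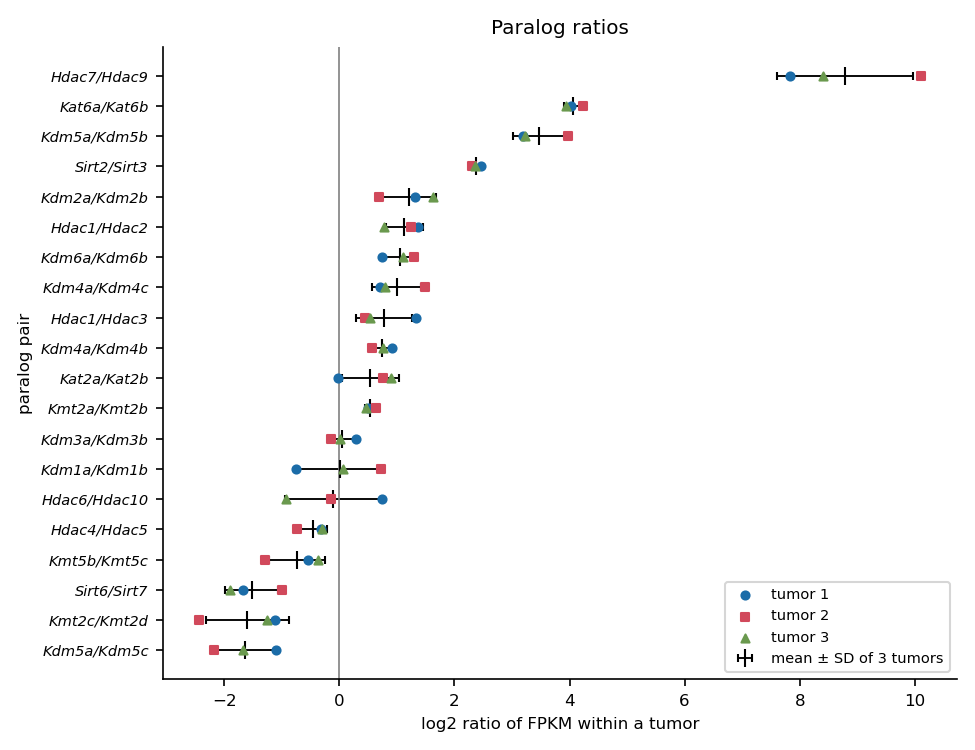
Log2 ratio of the FPKM of 20 pairs of paralogs, each tumor as a point with the mean and SD (n = 3). The 16 pairs with all 3 tumors on 1 side of 0 range from Hdac7 over Hdac9 at 8.78 to Kdm5a over Kdm5c at -1.65.

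Enzymes under other names and the partners of the members were set beside them. In 7 related lists, 103 genes had a mean of at least 1 FPKM. As deposited, 6 of these had a ratio of at least 2 (5.83%, against 34.4% of all genes). The median ratio of the 103 was 1.42 (1.68 for all genes), but the 9 genes of PRC2 had a median of 1.82. Among 10 other acetyltransferases (73.9, 71.9 and 63.8 FPKM in tumors 1, 2 and 3) none reached a ratio of 2 as deposited. After centring by GC content Ncoa2 did, its ratio going from 1.80 to 2.04. The nuclear receptor coactivator Ncoa3 (9.98 ± 2.11 FPKM) and Hat1 (9.96 ± 1.71), which acetylates new H4, were highest. Among 21 other methyltransferases (159, 163 and 124 FPKM) the H3K9 enzyme Ehmt2 (G9a) was highest, with 16.6, 35.9 and 18.6 FPKM. Ehmt2 was the 1 gene of its list with a ratio of at least 2 as deposited. It had 60.8% GC and a ratio of 1.53 after centring by GC content, with tumor 2 highest on both scales. Smyd3 went the other way, from 1.82 as deposited to 2.23 after centring by GC content, with tumor 3 highest on both. Next to Ehmt2 in mean level was Nsd3, for H3K36, at 11.7 ± 2.60. The 11 further JmjC proteins (55.7, 61.7 and 52.8 FPKM) had none, with Phf2 (13.7 ± 0.937) and Jmjd6 (8.67 ± 2.20) highest.

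Deacetylase complexes had the highest sums among the lists, with 409, 430 and 403 FPKM over 23 genes. Rbbp7, the histone binding chaperone, led with 76.9 ± 10.8 FPKM before the NuRD helicase Chd3 with 48.4 ± 16.0 (n = 3). In this list Tbl1xr1 of NCoR (9.88, 4.80 and 5.35 FPKM) and Sap30 of Sin3 (3.95, 6.04 and 1.84) had ratios of at least 2 as deposited. After centring by GC content, 3 of the 21 genes at a mean of at least 1 FPKM did, against 27.6% of all genes. The ratio of Tbl1xr1 went from 2.06 to 1.35, whereas Mbd2 (2.22) and Tbl1x (2.04) passed the fold beside Sap30 (2.81). A COMPASS list of 11 subunits of H3K4 methyltransferase complexes, not all shared by the MLL enzymes, summed to 147, 128 and 118 FPKM. None of the 11 reached the fold, with Hcfc1 (21.0 ± 2.42) and Cxxc1 (18.6 ± 0.258) highest. Partners of acetyltransferases (25 genes) summed to 176, 165 and 164 FPKM and were led by Msl2 (16.3 ± 3.32) and Msl3 (13.7 ± 2.11), and Jade2, a scaffold of Kat7, reached the fold with 4.19, 10.8 and 10.8 FPKM. PRC2, which methylates H3K27, summed to 99.3, 76.1 and 73.8 FPKM over 9 genes, led by Phf1 (22.5 ± 4.55) and Suz12 (15.9 ± 6.10). Its accessory subunits Aebp2 (14.1, 4.56 and 6.23 FPKM) and Phf19 (3.79, 4.36 and 1.60) had ratios of 3.08 and 2.73, which were 1.75 and 2.30 after centring by GC content.

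Marker RNA of other cell types differed between the tumors as well. Macrophage and monocyte genes (8 of 8 above 0.2 FPKM in each tumor, Lyz2 highest) summed to 435, 147 and 36.5 FPKM in tumors 1, 2 and 3, although Cd68 (19.6, 51.2 and 9.27) was highest in tumor 2. B-cell genes (6 of 6, Cd79a highest) summed to 62.1, 50.2 and 118, although Cd22 (5.84, 36.5 and 13.9) was highest in tumor 2 and made up most of its sum. Neutrophil genes (2 of 5, S100a9 highest, Elane without a read) summed to 35.9, 1.35 and 14.8. Red cell precursors (3 of 4, Hba-a1) gave 131, 27.1 and 3.46 FPKM, and epithelium (2 of 4, Cdh1) 14.2, 2.75 and 0.913. These sums were highest in tumor 1 apart from that of B-cells. The epithelium sum was mostly Cdh1 (13.7, 0.934 and 0.410 FPKM), while the other 3 of its 4 genes, Epcam, Krt18 and Krt8, were highest in tumor 2.

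Tumor 2 had the highest sum of fibroblast genes (1 of 6 above 0.2 FPKM in each tumor, Col1a1 highest), with sums of 11.4, 41.7 and 0.362 FPKM, although Dcn (5.04, 3.27 and 0.00825) and Lum (1.28, 0.646 and 0.0177) were higher in tumor 1 as deposited. It was also highest for genes of pancreatic acinar cells (0 of 8 above 0.2 FPKM in each tumor, Ctrb1 highest), with 87.0, 440.3 and 0.657. Endothelial genes (1 of 5, Pecam1) summed to 13.6, 12.9 and 5.16 FPKM. Genes of cycling cells (8 of 8, Mki67) summed to 145, 89.7 and 47.6 FPKM, and all 8 were highest in tumor 1 as deposited and 6 after centring by GC content. As deposited, Hdac1, Kat2b, Kdm1b and Sirt4 shared their highest tumor with the cycling and macrophage sums, Hdac5, Hdac7, Hdac11, Kdm2b, Prmt2 and Kmt2d shared theirs with the fibroblast and acinar sums, and Hdac10 with the B-cell sum. Hdac1, Kdm1b and Sirt4 were lowest in tumor 2. So was the neutrophil sum, which was also highest in tumor 1 (35.9, 1.35 and 14.8 FPKM in tumors 1, 2 and 3). Hdac5, Hdac7, Hdac10, Hdac11 and Prmt2 were lowest in tumor 1, whereas Kat2b, Kdm2b and Kmt2d were lowest in tumor 3. The cycling, macrophage, fibroblast and acinar sums were also lowest in tumor 3, and the B-cell sum was lowest in tumor 2. The part of these cell types in the result was not tested.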

How the data were processed

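Gene expression was measured by RNA-seq in 3 Dnmt3b+/- PTCL, 1 library each. The authors aligned reads to mm10 with STAR, kept those of high mapping quality and quantified them in SeqMonk; the deposited table gives FPKM per gene and tumor. Depth was inferred from the most frequent product of FPKM and exon length, taken as 0.9 read. Reads were recovered from FPKM, exon length and this depth, and were whole within 0.05 read in each tumor for 48 members. For 5 members (Hdac7, Kmt2d, Hdac3, Kmt5b and Kdm2a) they were not whole, and no reads or intervals are given. Genes without reads are listed at the FPKM of 0.9 read. Intervals are exact 95% Poisson intervals, and 3 reads served as the limit for no read.

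Values were computed with Python 3.11, pandas 2.3.3, NumPy 2.4.6 and SciPy 1.17.1, and drawn with matplotlib 3.10.9. A gene counted as present above 0.2 FPKM in each tumor. Ratios between tumors were taken for genes with a mean of at least 1 FPKM, with a fold of 2 as the threshold. With 1 group of 3 tumors no test was run. Means are given with the SD (n = 3). Named with values are the 3 highest and the lowest member of each family, members past the fold or not present, the 3 with the lowest coefficient of variation, the paralogs of the pairs, the 2 highest genes and those past the fold of each related list, and Dnmt3b. The remaining members are given with their mean so that each member has a value, as decided after the values were seen. Members and lists were chosen with earlier results of these data known.

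Alternatives were median-of-ratios factors, TPM, thresholds of 0.1 and 1 FPKM, folds of 1.5 and 3, no filter or a mean of at least 5 FPKM, pseudocounts of 0.1 and 1, sums of recovered reads, and leaving out each tumor. Centring of log2 FPKM within 20 bins of GC content of the longest transcript, and by chromosome, and a filter on the mean of the tumors other than the highest were added after seeing the data. Recovery of depth, the fold calls and centring by GC content were tested on simulated data. Median-of-ratios scaling and centring by chromosome were not. Bisulfite sequencing and RNA-seq of normal T-cells and of other lymphomas were not analysed here, since no values of them were in the files used.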

Additional observations from a re-analysis of the deposited data

How the results depend on the processing

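No paired analysis was possible because only 1 group of tumors had values. The 52 members above 0.2 FPKM in each tumor were 51 with median-of-ratios factors, 53 as TPM, 52 at a threshold of 0.1 FPKM and 45 at 1 FPKM. The share of all genes (36.7%) was taken at 0.2 FPKM as deposited alone, so these other counts are not set against other genes. The 11 members with a ratio of at least 2 became 24 at a fold of 1.5 and 2 at a fold of 3 (62.8% and 16.4% of all genes), which follows from the fold itself. They were 15 as TPM (39.4% of all genes). After centring by GC content they were 6 (27.6%), and after centring by GC content and chromosome again 6 (26.6%). With no filter they were 14, and at a mean of at least 5 FPKM they were 6. No share of all genes was taken for either filter, so counts there are not set against other genes. Leaving out 1 tumor gave 3 to 9. The median ratio of 1.49 was 1.38 at a mean of at least 5 FPKM, 1.32 after centring by GC content and chromosome, and 1.17 to 1.36 without 1 tumor, where fewer samples can only lower it. Members highest in tumor 1 (23) were 12 with median-of-ratios factors, 10 centred by GC content and 12 centred by GC content and chromosome. Those highest in tumor 2 (20) were 13 at a mean of at least 5 FPKM, where fewer genes remain. Those highest in tumor 3 (5) were 14, 11 and 10 on those 3 scales, 2 as TPM, 3 at a mean of at least 5 FPKM and 14 to 17 without 1 tumor. Summed recovered reads, which weigh long genes more, gave shares of 17.0% for Hdac, 4.74% for Sirt, 8.24% for Kat, 35.8% for Kmt and 6.60% for Prmt, with Kdm at 27.6% and Kmt the largest family. Between the leave-outs, the mean log2 ratio of Hdac6 over Hdac10 ran from -0.53 to 0.30, that of Kdm1a over Kdm1b from -0.35 to 0.39 and that of Kdm3a over Kdm3b from -0.066 to 0.15, each with a change of sign. For the other changes the cause was not tested. All 54 mean levels moved by more than 1 SD as TPM, by construction, and none with median-of-ratios factors or without 1 tumor, though the mean of Hdac11 went from 1.55 to 0.771 and that of Kdm4d from 0.526 to 0.310 without tumor 2, and that of Sirt4 from 1.16 to 0.654 without tumor 1. Of 21 paralog ratios, 2 moved with a pseudocount of 0.1 and 5 with 1. Depth limits Sirt4, Kdm4d, Hdac9 and Prmt8 most, which had at most 52 reads in tumors 2 and 3. With 3 tumors and no normal T-cells, no level can be called specific to lymphoma or to the genotype.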
